A study of Rattus norvegicus with 8 samples.

Results

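The interferon response genes described here are 37 genes fixed by name, among them Isg15, the Ifitm family, Ifi27, Lgals3bp, Stat2 and Irf7, in single cells of rat fracture callus, the repair tissue around a broken bone. Of the 37, 32 were listed in at least 1 of 8 libraries and 30 in all 8, out of 12282 genes listed in at least 1 library and 10849 listed in all. Oas1a, Oasl, Rsad2, Xaf1 and Herc6 were listed in none. Mx1 was listed only in CGRP and control at week 12, and Ifit3 was missing from Mg at week 12. Levels are given as CPM: the unique molecular identifiers (UMIs, which tag each captured transcript once) of a gene, summed over all barcodes with at least 5000 UMIs, per 1000000 UMIs of the library. This took in 65208 barcodes, 6809 to 10370 in a library, with median depths between 12742 and 20545 UMIs.

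Sprague Dawley rats had a closed fracture of 1 femur, held by a nail inside the bone. The labels name nails of steel and of a magnesium-containing kind without saying which group had which. Libraries are called Mg (zoledronate with magnesium), CGRP (zoledronate with calcitonin gene-related peptide, a sensory neuropeptide), zoledronate, and control, which the labels call untreated, and each was made once at week 12 and once at week 4 after fracture. Zoledronate, a bisphosphonate that blocks bone resorption, had been injected under the skin at 0.3 mg/kg each week for 12 weeks before the fracture. The series title names healing of the atypical femoral fracture, the kind that follows long bisphosphonate use, and magnesium. In all groups callus was digested with collagenase A and its cells then spent 24 h in a culture dish, so the cells measured are those that lived through culture. The labels do not give the number of rats behind a library, their age or the CGRP dose. With 1 library per treatment and week there is no replicate, no test was made, and treatment and library cannot be told apart. In sums over a library, fewer expressing cells and less RNA per cell cannot be told apart either. Intervals in this text are exact 95% intervals that cover counting error only, with UMIs taken as independent draws.

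Interferons are secreted alarm proteins. Type I interferons bind the receptor pair IFNAR1 and IFNAR2, type III interferons bind IFNLR1 and IL10RB, and both act through the kinases JAK1 and TYK2. These kinases activate STAT2, which joins IRF9 in the complex ISGF3. ISGF3 binds the interferon-stimulated response element, a short promoter sequence built on repeats of GAAA, and switches on genes whose products block virus entry, copying and translation. Type II interferon works through another receptor. Many of these genes also have a level that does not need interferon, and in mouse bone type I interferon is known as a brake on osteoclast formation.

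The core of that element is printed here for 8 members whose promoter holds it, among them the high members Ifitm3, Ifitm2, Ifi27 and Lgals3bp and 4 inducible ones, to let the letters be compared. RefSeq (GRCr8) had a promoter for 28 of the 37 members. The core searched was GAAA, any 2 bases, and GAAA again, read on both strands in the 250 bases before the gene start. It was found in 17 of 28 members (60.7%), against 902 of 27457 rat promoters (3.29%). Among the 14 members used below to mark responding cells, 7 of 9 with a promoter held it, and among the other members 10 of 19. Of the 5 members listed in no library, 3 held it. A match is a match of letters and not a shown binding site. In the sequences below, 5′ to 3′ on the gene's strand, the core is in capitals, and runs of TTTC mark a core on the opposite strand. In Ifitm3 it lies 44 to 35 bases before the start, in Ifitm2 33 to 24, in Lgals3bp 50 to 41, in Irf7 69 to 60, in Cxcl10 243 to 234 and in Ifit3 44 to 35. Ifi27 holds 2 such cores, of which the one printed lies 84 to 75 bases before the start. Bst2, which encodes the membrane tether tetherin, holds overlapping cores over bases 131 to 116.
Ifitm3: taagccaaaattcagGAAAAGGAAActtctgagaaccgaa
Ifitm2: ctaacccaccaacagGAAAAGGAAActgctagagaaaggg
Lgals3bp: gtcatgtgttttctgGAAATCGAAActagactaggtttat
Ifi27: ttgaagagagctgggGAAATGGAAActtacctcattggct
Irf7: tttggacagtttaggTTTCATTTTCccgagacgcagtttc
Cxcl10: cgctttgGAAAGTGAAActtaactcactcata
Ifit3: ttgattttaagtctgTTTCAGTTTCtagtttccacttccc
Bst2: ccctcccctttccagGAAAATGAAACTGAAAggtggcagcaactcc
The cores of Ifitm3 and Ifitm2 share the same 10 letters. The Ifi27 core that is not printed, 169 to 160 bases before the start, has these letters too. Trim25, Stat2, Irf9, Irf1, Mx1, Parp9, Dtx3l, Ifi35, Cmpk2, Oasl and Herc6 had a promoter in the table and no such core in this window. Isg15, Usp18, Ifit2, Mx2, Ddx58, Dhx58, Ifitm1, Rtp4 and Adar were not in the table.

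Most members were near the lower end of what these libraries could measure. Of the 32 listed, 24 stayed below 10 CPM and 6 below 1 CPM in every library. Ifi27, Ifitm3 and Ifitm2 were above 100 CPM in every library and together held 88.0% to 91.4% of all member UMIs. UMIs were not scaled to transcript length, since a transcript is tagged once whatever its length. The members summed to 1528 CPM in Mg, 1704 CPM in CGRP, 998.5 CPM in zoledronate and 945 in control at week 12. At week 4 the sums were 988 CPM in Mg, 860.3 CPM in CGRP, 1067 CPM in zoledronate and 1111 in control. The Mg and CGRP libraries of week 12 thus lay above the other 6, and most of that came from 1 gene, Ifitm3. The 14 members used below to mark responding cells summed to only 7.43 CPM (zoledronate, week 12) to 20.3 CPM (CGRP, week 12).

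**Figure D1:**
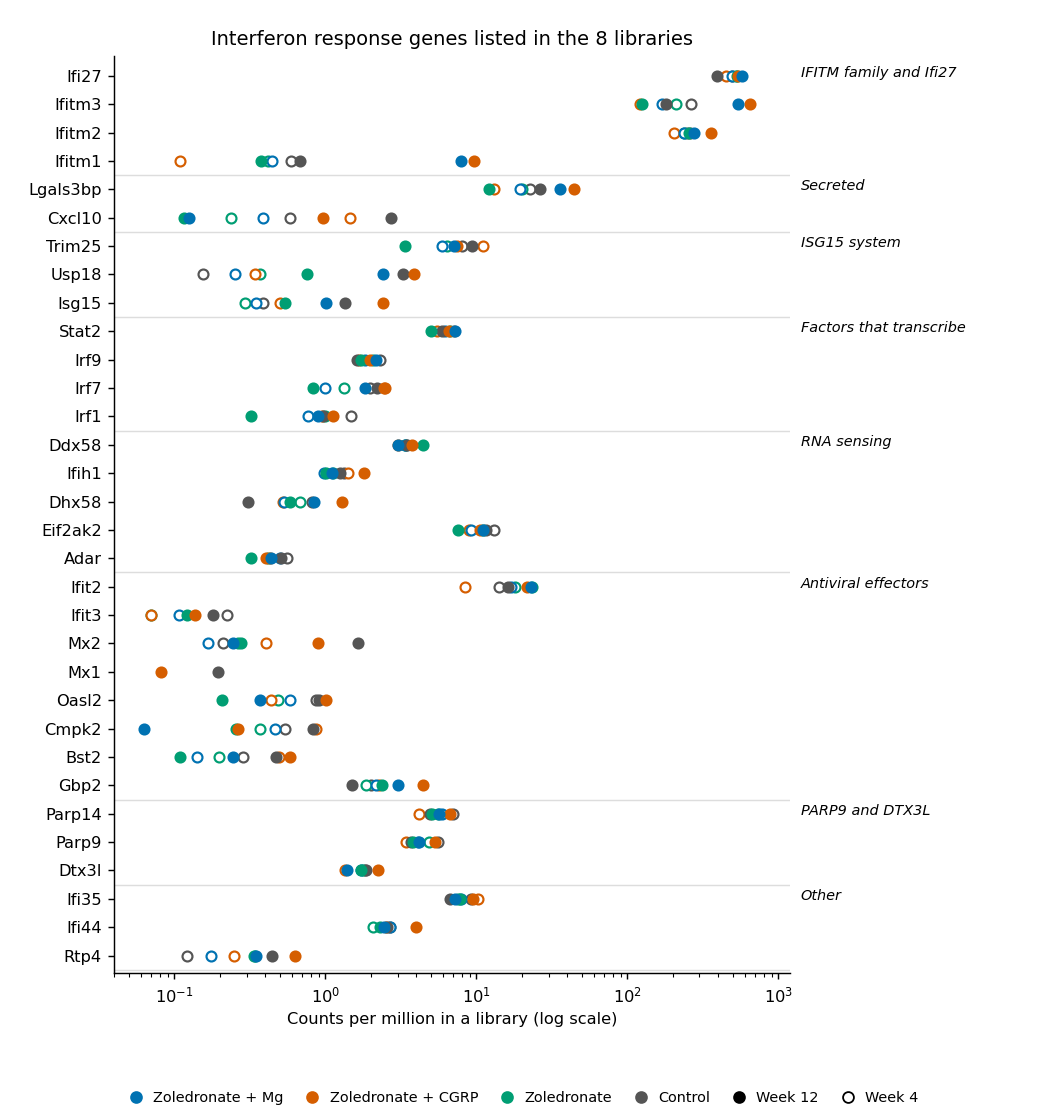
Level of each of the 32 listed members in each library, grouped by role, in CPM on a log axis. Colours give the treatment, filled circles week 12 and open circles week 4. Ifi27, Ifitm3 and Ifitm2 lie above 100 CPM in every library, and Ifitm1 and Ifitm3 set Mg and CGRP at week 12 apart from the other 6 libraries.

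The IFITM genes encode small membrane proteins that hinder enveloped viruses from fusing with the cell. Ifitm3 was at 542 CPM in Mg, 652 CPM in CGRP, 124 CPM in zoledronate and 179 in control at week 12. The corresponding levels of Ifitm3 at week 4 were 168 CPM in Mg, 121 CPM in CGRP, 210.4 CPM in zoledronate and 263 in control. Both week 12 libraries with an added agent were thus above all 6 others, and CGRP, the highest at week 12, was the lowest at week 4. At week 12 Ifitm3 was 4.37-fold higher in Mg than in zoledronate (4.30 to 4.43) and 5.25-fold higher in CGRP than in zoledronate (5.17 to 5.33). At week 4 the ratio to zoledronate was 0.80 in Mg (0.787 to 0.814) and 0.576 in CGRP (0.566 to 0.587). Week 12 over week 4 the ratio was 3.22 in Mg and 5.37 in CGRP, against 0.590 in zoledronate and 0.683 in control.

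At week 12 Ifitm1 followed the order of Ifitm3 at a far lower level. It was at 7.87 CPM in Mg (1257 UMIs), 9.65 CPM in CGRP (1420 UMIs), 0.372 CPM in zoledronate (58 UMIs) and 0.680 CPM in control (95 UMIs) at that week. Its week 4 values were 0.440 CPM in Mg, 0.108 CPM in CGRP, 0.415 CPM in zoledronate and 0.587 in control. Outside the Mg and CGRP libraries of week 12 Ifitm1 therefore never reached 1 CPM. At week 12 it was 21.2-fold higher in Mg (16.3 to 28.0) and 26.0-fold higher in CGRP (19.96 to 34.4) than in zoledronate, the widest ratio of any member in these 2 comparisons. On log2(CPM + 1), the scale used for calls below, these differences are 2.69 and 2.96, since adding 1 CPM narrows the ratios of low genes. Ifitm1 had a UMI in 663 cells (8.29%, 7.69 to 8.91) of Mg, 736 cells (7.10%, 6.61 to 7.61) of CGRP, 19 cells (0.205%, 0.123 to 0.32) of zoledronate and 70 cells (0.90%, 0.702 to 1.14) of control at week 12. With every cell thinned to 5000 UMIs the shares for Ifitm1 were 3.19% in Mg, 3.45% in CGRP, 0.0970% in zoledronate and 0.411% in control.

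Ifitm2 varied far less than its relatives. At week 12 it was at 277 CPM in Mg, 356 CPM in CGRP, 255 CPM in zoledronate and 261 in control, and at week 4 it was at 236 CPM in Mg, 203 CPM in CGRP, 237 CPM in zoledronate and 248 in control. CGRP was again highest at week 12 and lowest at week 4, with a ratio of 1.75 between its weeks (1.72 to 1.77). No source used here says how reads that map to more than 1 of these similar genes were counted, so the split between Ifitm1, Ifitm2 and Ifitm3 is uncertain. Ifi27, a small inducible membrane protein gene, was the member with the highest level and varied 1.48-fold over the 8 libraries. It was at 578 CPM in Mg, 541 CPM in CGRP, 533 CPM in zoledronate and 391 in control at week 12, and between 449 CPM in CGRP and 521 CPM in zoledronate at week 4.

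**Figure D2:**
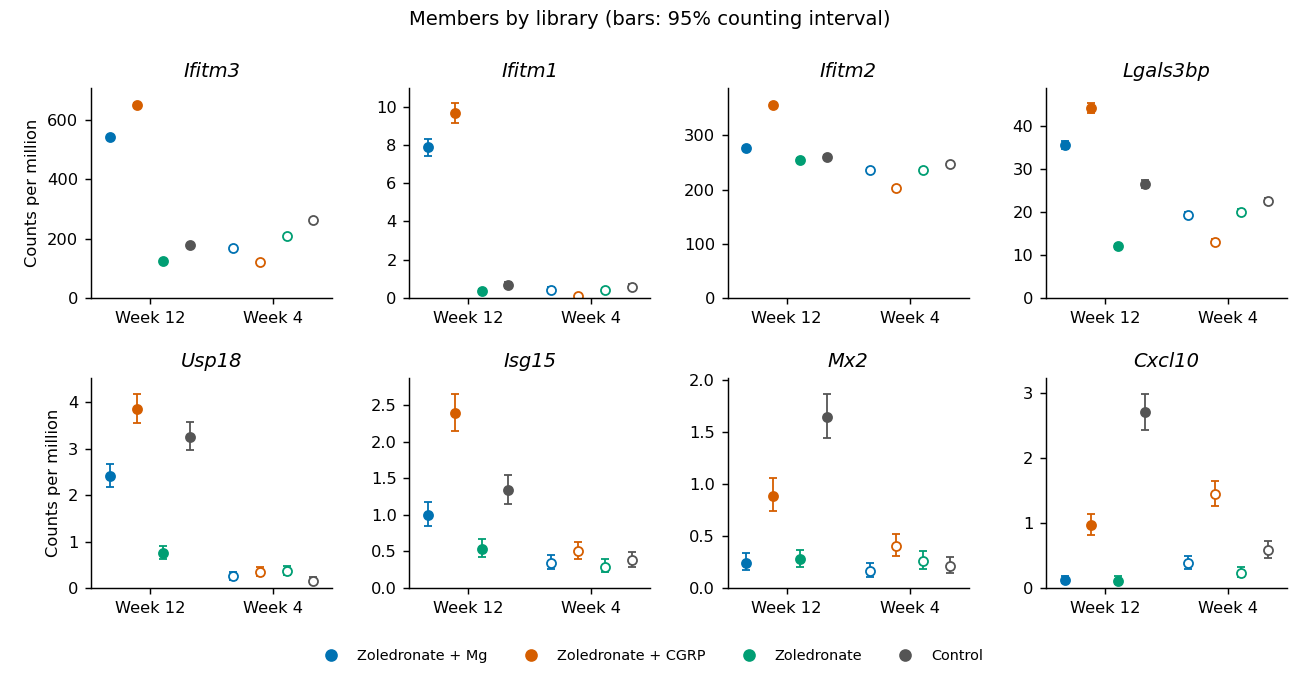
CPM of 8 members by library, each on its own axis from 0, with week 12 (filled) left of week 4 (open). Within a week the order is Mg, CGRP, zoledronate, control, and bars are exact 95% counting intervals. Ifitm3, Ifitm1 and Lgals3bp are highest in Mg and CGRP at week 12, while Mx2 and Cxcl10 are highest in control at week 12.

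The Ifitm3 difference was spread over most cells. With each cell thinned to 5000 UMIs, Ifitm3 had a UMI in 80.9% of cells in Mg (80.1 to 81.8), 88.1% in CGRP (87.5 to 88.7), 41.9% in zoledronate (40.9 to 42.9) and 48.8% in control (47.7 to 49.9) at week 12. Thinned cells at week 4 had one in 48.2% of cases in Mg, 40.8% in CGRP, 53.9% in zoledronate and 62.3% in control. Unthinned, the week 12 shares were 96.7% in Mg, 97.7% in CGRP, 74.7% in zoledronate and 80.0% in control. The median thinned cell at week 12 held 2 Ifitm3 UMIs in Mg, 3 in CGRP, 0 in zoledronate and 0 in control, and the 90th percentile was 7, 8, 2 and 3 in the same order. The richest 5% of cells held 18.3% of Ifitm3 UMIs in Mg and 16.4% in CGRP, against 29.9% in zoledronate and 26.2% in control, so the higher level did not rest on a few cells. No class of cells that should lack Ifitm3 was at hand, so its background from free RNA was not measured.

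**Figure D3:**
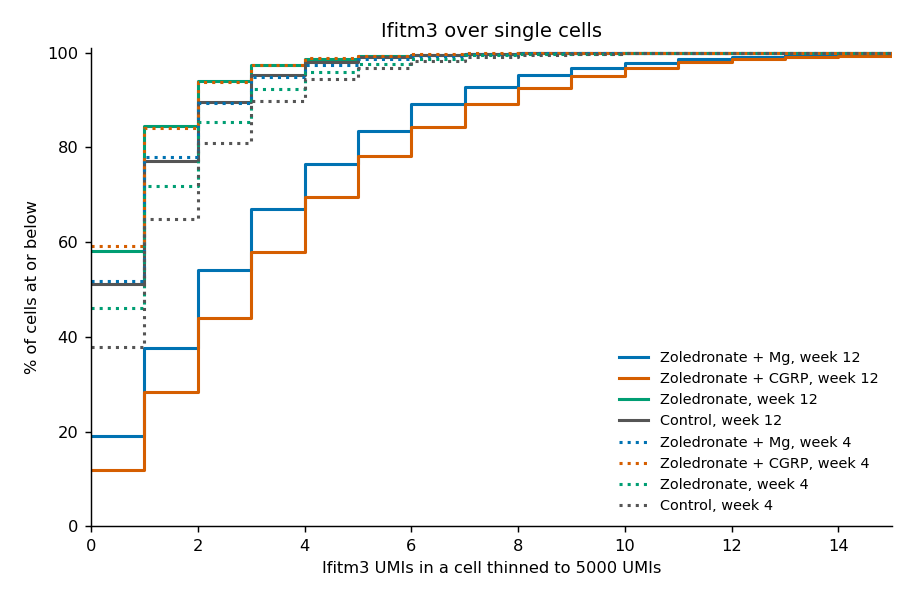
Share of cells with a given number of Ifitm3 UMIs or fewer, in each library, after each cell was thinned to 5000 UMIs. Solid lines are week 12 and dotted lines week 4. The curves of Mg and CGRP at week 12 lie to the right of the other 6 at every number of UMIs up to 10.

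Among the secreted products, Lgals3bp, a glycoprotein that binds galectin-3, had the same order as Ifitm3. It was at 35.7 CPM in Mg, 44.3 CPM in CGRP, 12.0 CPM in zoledronate and 26.5 in control at week 12, and at 19.4 CPM in Mg, 13.1 CPM in CGRP, 19.98 CPM in zoledronate and 22.6 in control at week 4. Zoledronate at week 12 was the lowest of the 8 libraries for Lgals3bp, and at that week the gene was 2.97-fold higher in Mg (2.82 to 3.13) and 3.68-fold higher in CGRP (3.5 to 3.88) than in zoledronate. Zoledronate over control gave a ratio of 0.453 at week 12 (0.428 to 0.479) and 0.884 at week 4. Cxcl10, a chemokine for T cells that NF-kB also induces, followed another order. Its level was 0.125 CPM in Mg, 0.965 CPM in CGRP, 0.115 CPM in zoledronate and 2.70 in control at week 12, and 0.387 CPM in Mg, 1.45 CPM in CGRP, 0.236 CPM in zoledronate and 0.580 in control at week 4. CGRP was above Mg and zoledronate at both weeks, and control was highest at week 12. Those levels rest on few UMIs, with 20 in Mg and 18 in zoledronate at week 12, and 1 control cell gave 53 of the 377 Cxcl10 UMIs of its library.

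Isg15 encodes a ubiquitin-like protein that is attached to other proteins, and Usp18 removes it again and damps the type I receptor. Usp18 was at 2.41 CPM in Mg, 3.86 CPM in CGRP, 0.750 CPM in zoledronate and 3.26 in control at week 12. None of the week 4 libraries reached 0.4 CPM of Usp18: it was at 0.253 CPM in Mg, 0.343 CPM in CGRP, 0.370 CPM in zoledronate and 0.155 in control. Every treatment was thus higher at week 12, by 9.52-fold in Mg (6.81 to 13.7), 11.3-fold in CGRP (8.50 to 15.2), 2.03-fold in zoledronate (1.47 to 2.83) and 21.0-fold in control (13.8 to 33.4). For Isg15 the week 12 levels were 1.002 CPM in Mg, 2.39 CPM in CGRP, 0.539 CPM in zoledronate and 1.34 in control, and the week 4 levels lay between 0.293 CPM (zoledronate) and 0.502 CPM (CGRP). Trim25, a ubiquitin ligase that acts with the RNA sensor RIG-I, was at 7.07 CPM in Mg, 7.44 CPM in CGRP, 3.35 CPM in zoledronate and 9.36 in control at week 12. At week 4 Trim25 was at 5.95 CPM in Mg, 11.05 CPM in CGRP, 6.36 CPM in zoledronate and 8.01 in control. Cell cycle genes, summed over a list of 16, had the same extremes as Trim25, with 270.0 CPM in zoledronate at week 12 and 1713 CPM in CGRP at week 4. In cells without a UMI of 5 cell cycle genes the Trim25 levels at week 12 were 6.28 CPM in Mg, 6.52 CPM in CGRP, 3.24 CPM in zoledronate and 6.94 in control, so zoledronate remained the lowest.

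Among the direct antiviral effectors, Ifit2, which binds viral RNA, was at 23.0 CPM in Mg, 21.7 CPM in CGRP, 23.2 CPM in zoledronate and 16.2 in control at week 12, and at 17.0 CPM in Mg, 8.43 CPM in CGRP, 18.1 CPM in zoledronate and 14.2 in control at week 4. CGRP at week 4 was the low library, at 0.466 of zoledronate (0.436 to 0.497). Ifit2 did not share the order of Ifitm3, although both are members: at week 12 its ratio to zoledronate was 0.99 in Mg and 0.932 in CGRP. Mx2, a dynamin-like antiviral GTPase, was at 0.244 CPM in Mg, 0.890 CPM in CGRP, 0.276 CPM in zoledronate and 1.65 in control at week 12, and at most 0.407 CPM at week 4. Its relative Mx1 had 12 UMIs in CGRP and 27 in control at week 12, of which 10 came from 1 control cell. Other effectors were also low, with Oasl2 between 0.205 and 1.01 CPM, Cmpk2 between 0.0626 and 0.864 CPM, Bst2 between 0.109 and 0.585 CPM and Ifit3 between 0.0699 and 0.223 CPM. Gbp2, a guanylate-binding protein that type II interferon also induces, was lowest in control at week 12 (1.5 CPM) and highest in CGRP at week 12 (4.41 CPM).

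Among the factors that carry the signal, Stat2 varied 1.44-fold and Irf9 1.41-fold over the 8 libraries, while Irf7 varied 2.98-fold and Irf1 4.61-fold. Stat2 stayed between 5.02 CPM in zoledronate and 7.23 CPM in Mg, both of week 12, and Irf9 between 1.63 and 2.29 CPM. Irf7, the factor that amplifies the response, was at 1.84 CPM in Mg, 2.44 CPM in CGRP, 0.827 CPM in zoledronate and 2.21 in control at week 12, and at 0.987 CPM in Mg, 2.47 CPM in CGRP, 1.33 CPM in zoledronate and 1.98 in control at week 4. Irf1, which type II interferon and NF-kB induce, was lowest in zoledronate at week 12 (0.321 CPM) and highest in control at week 4 (1.48 CPM). Of the RNA sensors, Ddx58 (RIG-I) ranged from 3.01 to 4.45 CPM, Ifih1 (MDA5) from 0.974 to 1.80 CPM and Dhx58 (LGP2) from 0.308 to 1.28 CPM. Eif2ak2, the kinase PKR that halts translation, ranged from 7.56 to 13.2 CPM, and Adar, the RNA-editing deaminase, from 0.321 to 0.560 CPM. Parp9 and Dtx3l, which encode partners in 1 complex, ranged from 3.39 to 5.57 CPM and from 1.35 to 2.23 CPM, and Parp14 from 4.19 to 6.98 CPM. Ifi35 lay between 6.66 and 10.2 CPM, Ifi44 between 2.08 and 3.95 CPM and Rtp4 between 0.121 and 0.625 CPM. Zoledronate at week 12 was the lowest library for 10 of the 30 members listed in all 8, which is near its share of all genes (27.3% lowest there). CGRP at week 12 was the highest for 14 of the 30, where 5.81% of all genes were highest.

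Members were next counted by size in each comparison of 2 libraries. A member was measured if both libraries listed it with at least 50 UMIs between them, and called if it was at least 1.5-fold higher or lower on CPM + 1. In Mg over zoledronate at week 12, 6 of 29 measured members were higher and 0 lower, against 8.63% of all measured genes higher and 5.02% lower. The 6 were Ifitm1, Ifitm3, Lgals3bp, Usp18, Trim25 and Irf7, and the member median was 0.17 on the log2 scale against 0.07 for all measured genes. In CGRP over zoledronate at week 12, 11 of 30 were higher and 0 lower (6.72% and 4.97% of all genes), with medians of 0.50 for the members and 0.02 for all genes. Beside the 6 genes just named, these were Isg15 (1.14), Cxcl10 (0.82), Oasl2 (0.74), Gbp2 (0.68) and Irf1 (0.68). In cells without a UMI of the 5 cell cycle genes, Irf7 in Mg over zoledronate (0.58) and Irf1 in CGRP over zoledronate (0.50) came under 1.5-fold. Both comparisons have zoledronate as denominator, which was itself low: in zoledronate over control at week 12, 0 members were higher and 8 of 30 lower (5.17% and 11.7% of all genes). Those 8 were Cxcl10 (-1.73), Usp18 (-1.28), Trim25 (-1.25), Lgals3bp (-1.08), Mx2 (-1.05), Irf7 (-0.81), Oasl2 (-0.66) and Isg15 (-0.60), with medians of -0.20 for the members and -0.10 for all genes. Scaling by TMM factors moved all ratios of this comparison by 0.11 and by DESeq2 factors by 0.13, which brought the median of all genes to -0.01 and 0.00, and left 1 member higher and 7 lower. In cells without a UMI of the 5 cell cycle genes Isg15 was at -0.28 and Mx2 at -0.47 there. Other lists also differed in these comparisons. Of 16 cell cycle genes, 12 were higher in Mg and 11 in CGRP over zoledronate at week 12, and 16 were lower in zoledronate over control. Of 10 immediate early and heat shock genes, which handling of cells induces, 6 were higher in Mg and 4 in CGRP over zoledronate at week 12, and 2 were lower in zoledronate over control. The part of these lists in the member counts was not tested. Ifitm1 and Ifitm3 were not among the 8 members called lower in zoledronate over control at week 12 (-0.29 and -0.53). Ifit2 (0.50) and Ifi27 (0.44) were on the higher side in that comparison. In Mg over CGRP at week 12, 0 members were higher and 3 of 29 lower, namely Cxcl10 (-0.80), Isg15 (-0.76) and Mx2 (-0.60), against 3.16% and 2.08% of all genes. The member median there was -0.28 and that of all genes 0.05, and 23 of the 29 were below 0.

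At week 4 the same comparisons set few members apart. In Mg over zoledronate at week 4, 0 of 30 members were higher and 0 lower, where 0.566% of all genes were higher and 0.777% lower. In CGRP over zoledronate at week 4, Cxcl10 (0.99) and Trim25 (0.71) were higher and Ifit2 (-1.02) and Ifitm3 (-0.79) lower, 2 of 30 each way, against 4.24% and 5.72% of all genes. In zoledronate over control at week 4, 0 of 30 were higher and 0 lower (1.53% and 1.12% of all genes). In Mg over CGRP at week 4, Ifit2 (0.93) was higher and Cxcl10 (-0.82), Irf7 (-0.80) and Trim25 (-0.79) were lower, 1 and 3 of 30, against 5.02% and 4.08% of all genes. The member medians at week 4 lay between -0.14 and 0.05 in these 4 comparisons. Of the 16 cell cycle genes, 0 were called in Mg and 14 were higher in CGRP over zoledronate at week 4. In zoledronate over control 7 of them were lower, and in Mg over CGRP 12. Of the 10 immediate early and heat shock genes, 5 were higher in Mg and 6 in CGRP over zoledronate at week 4. The part of these lists at week 4 was not tested either.

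Between the weeks, the treatments went different ways. For week 12 over week 4, 4 of 30 members were higher and 0 lower in Mg (6.61% and 5.16% of all genes), namely Ifitm1 (2.62), Ifitm3 (1.68), Usp18 (1.44) and Lgals3bp (0.84). In CGRP 9 of 30 were higher and 0 lower (7.56% and 7.03% of all genes), namely Ifitm1 (3.27), Ifitm3 (2.42), Usp18 (1.86), Lgals3bp (1.68), Ifit2 (1.27), Isg15 (1.18), Ifitm2 (0.80), Gbp2 (0.73) and Dhx58 (0.59). Dhx58 came under 1.5-fold in cells without a UMI of the cell cycle genes (0.34) and without cells rich in inducible members (0.57). In zoledronate 0 were higher and 4 of 29 lower (3.24% and 6.09% of all genes), namely Trim25 (-0.76), Ifitm3 (-0.76), Lgals3bp (-0.69) and Irf1 (-0.59), of which Irf1 came under 1.5-fold in cells without a UMI of the cell cycle genes (-0.50). In control 4 of 31 were higher and 0 lower (7.94% and 4.95% of all genes), namely Usp18 (1.88), Cxcl10 (1.23), Mx2 (1.13) and Isg15 (0.76). Of these, Isg15 came under 1.5-fold in cells without a UMI of the cell cycle genes (0.29) and without cells rich in inducible members (0.22). The members called in control were thus of the low kind called inducible below, a class set after levels were seen. Ifitm3 and Lgals3bp were called as higher in Mg and CGRP and as lower in zoledronate.

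**Figure D4:**
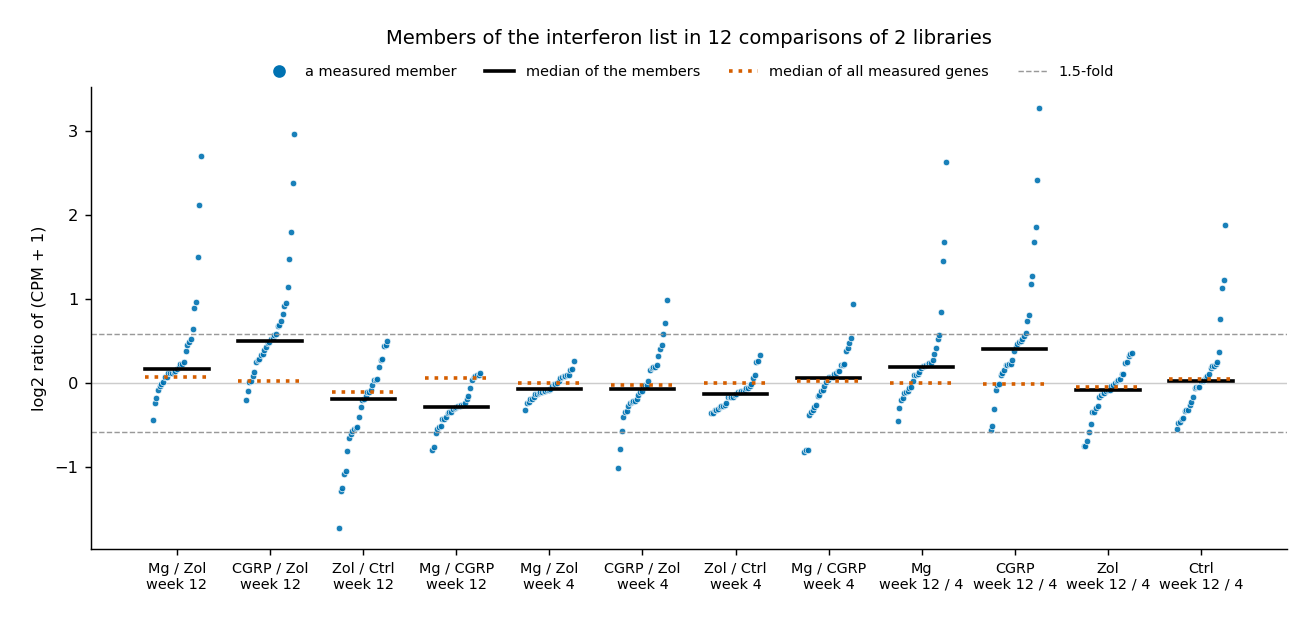
Log2 ratio of CPM + 1 for each measured member in 12 comparisons of 2 libraries, written numerator over denominator, with members sorted within a comparison. Black lines are member medians, dotted lines medians of all measured genes, and dashed lines mark 1.5-fold. Ifitm1 lies at 2.69 in Mg and 2.96 in CGRP over zoledronate at week 12, and at 2.62 in Mg and 3.27 in CGRP for week 12 over week 4.

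None of the interferon genes looked for was listed in any library. Of 17 genes for ligands and receptors, 12 were listed in no library, among them Ifnb1, Ifng, Ifnk, Ifne and the receptor chain Ifnar2. Ifnar1 was at 10.4 to 13.1 CPM, Ifngr1 at 15.7 to 24.8 CPM, Ifngr2 at 24.8 to 40.3 CPM and Il10rb at 22.2 to 26.0 CPM, while Ifnlr1, the chain particular to type III interferon, was at no more than 0.143 CPM. Of the 4 measured in each treatment comparison, Ifngr2 was called higher in zoledronate over control at week 12 (5.17% of all genes). None was called in the others. Of 10 measured genes for the kinases, STATs and their brakes, Jak2 and Stat3 were called higher and 0 lower in Mg over zoledronate at week 12. The same was true of CGRP over zoledronate at week 12. Among all genes 8.63% and 6.72% were called higher in these comparisons, and 5.02% and 4.97% lower. Of 11 measured genes of a list for nucleic acid sensing upstream of interferon, 0 were called in any of the 8 treatment comparisons. For week 12 over week 4, Samhd1 was called lower in Mg, zoledronate and control, and Rnaseh2b in CGRP. That is 1 of 11 in each, where 4.95% to 7.03% of all genes were lower. Of 70 further interferon-induced genes, 26 were listed in no library. At week 12, 9 of the 31 measured were higher and 1 lower in Mg over zoledronate (8.63% and 5.02% of all genes). In CGRP over zoledronate 9 of 32 were higher and 0 lower (6.72% and 4.97% of all genes). In zoledronate over control 2 of 33 were higher and 7 lower (5.17% and 11.7% of all genes). The 1 lower in Mg was RT1-A2, at 0.914 CPM in Mg, 46.1 CPM in CGRP, 66.4 CPM in zoledronate and 8.12 in control at week 12. Tapbp, which helps load peptides on MHC class I, was at 6.75 CPM in Mg, 5.66 CPM in CGRP, 1.15 CPM in zoledronate and 4.47 in control at week 12. Psmb9, a subunit of the immunoproteasome, was at 4.85 CPM in Mg, 7.03 CPM in CGRP, 1.37 CPM in zoledronate and 3.76 in control at week 12, and Apol9a at 3.04 CPM in Mg, 3.22 CPM in CGRP, 0.648 CPM in zoledronate and 0.866 in control.

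Across cells of a library the measured correlation between members was weak. After thinning, the median Pearson r between log2(UMIs + 1) of a member and of the sum of the other members lay between 0.0051 (Mg, week 4) and 0.0319 (control, week 12). Genes outside the list with a UMI in at least 1% of cells had medians of -0.0032 to 0.0011 with the member sum. That limit was not set for the members, which include very sparse ones, so the 2 medians are not like for like. Ifitm3 (median r of 0.135 over the 8 libraries), Ifitm2 (0.107) and Lgals3bp (0.0960) had the highest values, and Ifitm3 passed the 99th percentile of all genes in each library. The closest pair was Ifitm3 and Ifitm2, with a median r of 0.149 and the highest values of 0.287 in Mg and 0.286 in CGRP at week 12. Ifitm3 with Lgals3bp had a median r of 0.105, and the other 10 members that could be paired with Ifitm3 in all 8 libraries had median r values from -0.0013 (Ddx58) to 0.0241 (Stat2). Outside the list, the 10 of 7722 genes with the highest median r with the member sum were Cd63 (0.184), Mgp (0.163), C1qtnf5 (0.150), Rps26 (0.142), Timp1 (0.126), Ubb (0.122), Prdx5 (0.12), Bgn (0.12), Fdps (0.115) and Pcolce (0.11). These include matrix genes (Mgp, Bgn), the tetraspanin Cd63 and the inhibitor Timp1 but no interferon-induced gene of the lists used here. Cells of a library share its depth and handling, so these r values describe the libraries and carry no p, and a weak r in sparse counts is no finding.

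A few cells nevertheless held many inducible members at once. The 14 members Isg15, Usp18, Cxcl10, Ifit3, Mx1, Mx2, Irf7, Oasl2, Cmpk2, Rtp4, Bst2, Ifih1, Dhx58 and Ifi44, called inducible here, were counted per cell. They were chosen after their levels were seen and not by a level limit. Ifi44 (mean of 2.66 CPM over the 8 libraries) was taken, while Adar (0.447 CPM) and Irf1 (0.936 CPM) were not. Cells with a UMI of at least 4 of the 14, a limit set after the counts were seen, are called interferon-high cells. There were 58 among 65208 cells. At week 12 there was 1 in Mg, 21 in CGRP (0.203%, 0.125 to 0.309), 0 of 9278 in zoledronate (up to 0.0398%) and 22 in control (0.283%, 0.177 to 0.428). At week 4 there was 1 in Mg, 4 in CGRP, 5 in zoledronate and 4 in control. With cells thinned to 5000 UMIs there were 1 in Mg, 4 in CGRP, 0 in zoledronate and 12 in control at week 12. In Mg at week 12, where Ifitm3 and Ifitm1 were far above zoledronate, such cells were thus as rare as at week 4. Their median depth was 16236.5 UMIs in control at week 12, against 17240 in the other cells of that library, and 15249 UMIs in CGRP, against 12732 in its other cells.

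**Figure D5:**
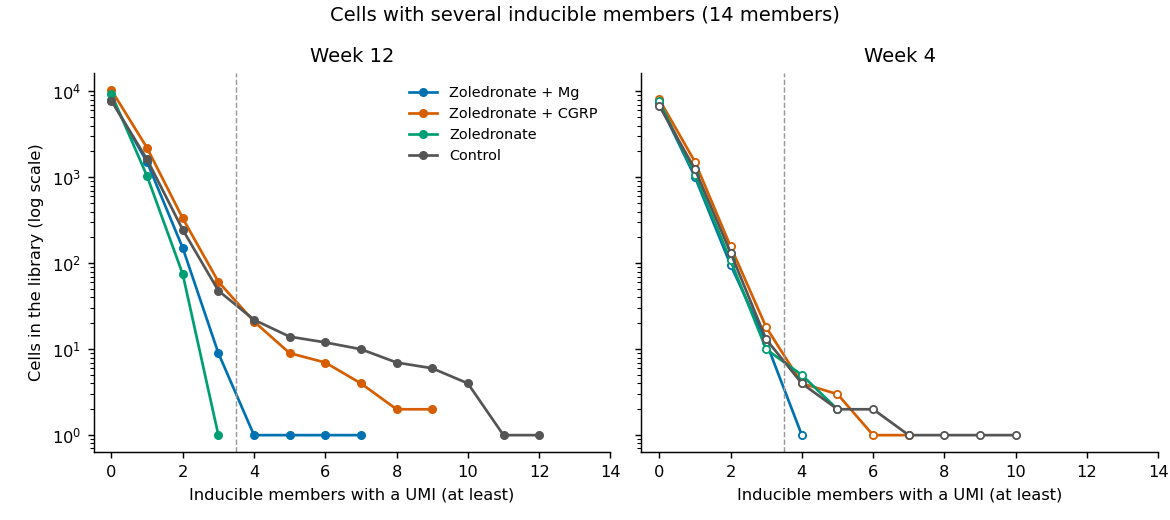
Number of cells, on a log axis, that hold a UMI of at least the given number of the 14 inducible members, at week 12 (left) and week 4 (right). The dashed line marks the limit of 4. At week 12 the lines of CGRP and control run on to 9 and 12 members, while Mg ends at 7 with 1 cell and zoledronate at 3.

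In control at week 12 the 22 interferon-high cells held 21.5% of all inducible UMIs of the library, and in CGRP at week 12 the 21 such cells held 8.68%. The most extreme was a control cell with 15929 UMIs in which 12 of the 14 were seen, with 37 UMIs of Cxcl10, 14 of Isg15, 10 of Mx1 and 9 of Mx2. Another control cell held 34 UMIs of Isg15 and 18 of Irf7. Both held UMIs of the collagen genes Col1a1, Col1a2 and Col3a1, as did all 58. Col1a1 was at 13152.5 CPM or more in every library, so such UMIs do not tell these cells from others. The fibroblastic markers summed to 17743 CPM in interferon-high cells and 24114.7 CPM in the others within control at week 12. Within CGRP at week 12 the fibroblastic sums were 39688.5 and 38013.6 CPM. Of the 8 listed macrophage and monocyte markers, 4 had a UMI in the 58 cells, with 20 UMIs of Cd14, 2 of Lyz2, 1 of Cd68 and 1 of Mrc1, while Ptprc, Csf1r, Cd74 and Fcgr1a had 0, and so did the endothelial Pecam1. These markers summed to 4.76 CPM in interferon-high cells and 11.6 CPM in the others within control at week 12, and to 38.4 and 22.2 CPM within CGRP at week 12, and their part in the result was not tested. Some week 12 differences rest on these cells. Without them Isg15 was at 0.539 CPM in zoledronate and 0.424 in control, so its log2 ratio turned to 0.11. For Mx2 the levels without them were 0.276 CPM in zoledronate and 1.15 in control (-0.75), and for Usp18 0.750 CPM in zoledronate and 2.97 in control (-1.18), so both were still at least 1.5-fold lower in zoledronate. In Mg over CGRP at week 12 all 3 called members came under 1.5-fold without these cells, at -0.57 for Cxcl10, -0.54 for Isg15 and -0.51 for Mx2. In control week 12 over week 4, Isg15 was at 0.22 without them. Ifitm3 without them was at 542 CPM in Mg, 651 CPM in CGRP, 124 CPM in zoledronate and 178 in control.

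Members that did not serve to choose these cells were also higher in them. Pooled over libraries, 14 of 18 such members were at least 2-fold higher in the 58 cells than in all others, as were 13 of 18 within control at week 12 and 11 of 18 within CGRP at week 12. Of all genes other than the 14 used to choose the cells, 6.29% were at least 2-fold higher pooled, 7.12% within control and 7.39% within CGRP at week 12. In these cells 1 UMI is worth 0.914 CPM pooled, 2.38 CPM within control and 2.75 CPM within CGRP, so ratios of low genes rest on few UMIs. Within control at week 12, Parp9 was at 35.7 CPM in these cells and 3.61 CPM in the others, Gbp2 at 19.0 and 1.44 CPM, Ddx58 at 26.2 and 3.42 CPM, and Ifit2 at 66.7 and 16.0 CPM. Ifitm3 was 2.88-fold higher in these cells within control at week 12 (2.51 to 3.30) and 1.34-fold within CGRP at week 12 (1.2 to 1.5), so at CGRP the other cells were nearly as rich in it. Ifitm1 had 0 UMIs in the 58 cells, which allows up to 3.37 CPM, and it was at 2.53 CPM in the others, so a difference was not detectable at this depth. Irf1 had 1 UMI. Of the further interferon-induced genes, 28 of 43 were at least 2-fold higher in these cells within control at week 12 and 23 of 43 within CGRP at week 12. Within control at week 12, Apol9a was at 54.8 CPM in these cells and 0.704 CPM in the others, and Psmb9 at 33.3 and 3.67 CPM. Cell cycle genes summed to 2393 CPM in these cells and 1280 CPM in the others within control at week 12, and to 1392 and 588 CPM within CGRP at week 12, and their part in the result was not tested. Cells were chosen by their members' UMIs, so these ratios are descriptions.

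Markers of other cell types were low beside the fibroblastic ones. All 10 fibroblastic markers were listed, with sums of 24096 to 42348 CPM. Macrophage and monocyte markers summed to 11.6 to 22.3 CPM, mostly Cd14, with Adgre1, Itgam, C1qa and C1qb listed in no library and Ptprc at no more than 0.0680 CPM. Lyz2 was at 7.03 CPM in CGRP and 5.76 CPM in zoledronate at week 12, at no more than 1.44 CPM where listed elsewhere, and not listed in control at week 12. Cd68, Cd74, Mrc1, Ptprc and Fcgr1a were also highest in CGRP at week 12, the library highest for 14 members, at 0.972, 0.537, 0.455, 0.0680 and 0.102 CPM. Of the other listed markers of this kind, Csf1r was highest in Mg at week 12 (0.526 CPM, against 0.326 CPM in CGRP). Cd14 was highest in zoledronate at week 12 (15.2 CPM, against 12.8 CPM in CGRP). The whole list summed to 22.3 CPM in CGRP and 22.0 CPM in zoledronate at week 12. The part of these markers in the member levels was not tested. Dendritic cell markers summed to 16.0 to 23.2 CPM, nearly all Tcf4, and Siglech, Flt3, Xcr1, Clec9a and Itgax were listed in none. Lymphocyte markers reached 0.172 CPM. Mast cell protease Mcpt1 was at 7.19 CPM in control at week 12, which had 22 of the interferon-high cells, and at no more than 0.140 CPM elsewhere, and its part in the result was not tested. NF-kB and inflammatory genes summed to 1602 CPM in Mg, 530 CPM in CGRP, 419 CPM in zoledronate and 169 in control at week 12, an order that differs from that of Ifitm3 and of the inducible members, and 92.3 to 105 CPM at week 4. Ccl2 and Ccl7 made up most of these sums at week 12, so the order there is largely theirs. At week 4 they were the smaller part, with Ccl2 at 8.89 to 23.5 CPM and Ccl7 at 3.33 to 9.34 CPM. Of 69087 distinct barcodes, 535 (0.774%) occurred in more than 1 library, 13 to 31 for a pair of libraries.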

How the data were processed

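The deposited files hold whole-number UMI counts for each gene and cell barcode, 1 file per library, from 10x Chromium V3 libraries aimed at 10000 cells. Per the submitters' processing notes the authors aligned reads with STAR to Rnor_6.0; versions, annotation, cell calling and filters are not stated. Listed genes had a UMI in at least 5 cells of their library, and no mitochondrial gene was listed. The files held 7541 to 10670 barcodes per library; those with at least 5000 UMIs (88.3% to 97.6%) were kept, and doublets were not removed. Each library held 139656712 to 159685281 UMIs in the cells used. UMIs were summed per library and scaled to CPM, and ratios are log2 of CPM + 1. With 1 library per group no model was fitted; intervals are exact (Poisson, conditional binomial, Clopper-Pearson). For shares and correlations each cell was thinned to 5000 UMIs. Correlations of pairs and of genes outside the list used genes with a UMI in at least 1% of cells. Those of a member with the sum of the others used every listed member. Members and lists were chosen with earlier results of these data known. Members given in every library by rule were those with a mean of at least 5 CPM that were at least 1.5-fold apart in a comparison with zoledronate or control as denominator, and the 5 with the highest mean: Ifi27, Ifitm3, Ifitm2, Lgals3bp, Ifit2 and Trim25. Other members given in full, and examples within interferon-high cells, were singled out after their values were seen. Ratios were tested on simulated data. Promoters came from RefSeq GRCr8. Software was Python 3.11.15, numpy 2.4.6, scipy 1.17.1, pandas 2.3.3, matplotlib 3.10.9 and R 4.3.3, with edgeR 4.0.16 and DESeq2 1.42.0 for scaling factors only. Alternatives changed the barcode limits, the scaling, the pseudocount, the filter on low counts, thinning and the cells or members included.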

Additional observations from a re-analysis of the deposited data

Results flagged for a closer look

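Ifitm3 in CGRP over zoledronate was higher at week 12 (2.38 on the log2 scale of CPM + 1) and lower at week 4 (-0.79), so the same contrast ran in opposite directions at the 2 weeks. With 1 library per group the difference between the weeks was not tested. In cells without a UMI of the 5 cell cycle genes the ratios were 2.48 at week 12 and -0.64 at week 4.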

How the results depend on the processing

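No paired analysis was possible because each treatment and week has 1 library and no result comes from a test. Of 328 values for medians, counts, correlations and member UMIs under other settings, 296 stayed near the reported value, and of 612 ratios of members called in a comparison, recomputed under other settings, 611 kept their sign and 586 stayed at least 1.5-fold apart. The exception in sign was Isg15 in zoledronate over control at week 12, at 0.11 without interferon-high cells, a setting added after seeing the data. A pseudocount of 0.1 CPM, which widens ratios of low genes, raised the number of members called at week 12 to 11 in Mg over zoledronate, 17 in CGRP over zoledronate, 15 in zoledronate over control and 10 in Mg over CGRP, while it called 20.3%, 18.4%, 24.7% and 9.42% of all genes. At week 4 it gave 1, 10, 4 and 8 in the same order of comparisons (3.23%, 16.0%, 5.84% and 14.98% of all genes), and for week 12 over week 4 it gave 9 in Mg, 17 in CGRP and 9 in zoledronate (17.9%, 21.6% and 15.7%). Medians with it were 0.77 in CGRP over zoledronate at week 12, -0.24 in zoledronate over control at week 4, and 0.24 in Mg and 0.63 in CGRP for week 12 over week 4. In cells without a UMI of the cell cycle genes 4 members were called in zoledronate over control and 1 in Mg over CGRP at week 12. Mg over CGRP at week 12 had 0 called without interferon-high cells and 1 with at least 200 UMIs over the pair. Thinning brought the member median to 0.18 in Mg over CGRP at week 4 and to 0.29 in Mg for week 12 over week 4. Without thinning, where depth adds to r, the median r was 0.0497 in Mg, 0.0633 in CGRP, 0.0302 in zoledronate and 0.0771 in control at week 12, and 0.0473 in Mg, 0.0561 in CGRP, 0.0493 in zoledronate and 0.0555 in control at week 4. Thinned to 10000 UMIs it was 0.0147 in Mg at week 12 and 0.018 in zoledronate at week 4. Member UMIs per 5000 had a median of 4.597 in control at week 12 without thinning. Apart from the effects of a smaller pseudocount and of fewer cells, the cause of these shifts was not tested. Depth limits the low members: 6 stayed below 1 CPM in every library.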
